A study of Drosophila melanogaster with 30 samples.

Results

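The nuclear transfer RNA (tRNA) genes of Drosophila were read out of Targeted DamID (TaDa) profiles of the transcription factor CrebB in the Mushroom Bodies (MBs). Every gene of the release 6 gene table whose symbol starts with tRNA: was taken, and 5 tRNA pseudogenes were left out. This gave 290 tRNA genes among the 17480 genes that were not at 0 in all profiles. None of the 290 was at 0 in every profile, and 17 were at 0 in at least 1.

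In TaDa, a protein fused to the bacterial adenine methyltransferase Dam marks GATC sites near the DNA it contacts. All flies carried the mb247-Gal4 driver, which acts in MB cells, and tubGal80ts, which holds the driver back until the flies are warmed to 29°C. They expressed either UAS-Dam-CrebB or UAS-Dam (Dam-only), and DNA came from pooled adult heads. Flies had appetitive olfactory training with odor and sucrose together (paired) or apart in time (unpaired), or no training (naïve). Dam expression was induced from 3 h before to 24 h after training (TI-1) or from 24 h to 48 h after it (TI-2), and the labels give no interval for the naïve flies. Each of the 5 groups had 3 replicates, and each of the 15 profiles gives, for 383654 GATC fragments, the signal of Dam::CrebB over that of Dam-only as a log2 ratio. A value above 0 means more methylation by Dam::CrebB than by Dam-only, and it is not a level of tRNA.

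tRNAs carry amino acids to the ribosome and read the codons of mRNA with their anticodon. Their genes are transcribed by RNA polymerase III from promoter elements that lie inside the gene, and flies hold many copies of most of them, often in clusters. A gene name gives the amino acid, the anticodon in DNA letters, a number for the sequence of the mature tRNA and a number for the copy. Genes that share all but the last number are called a family here.

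tRNA genes are short against the resolution of the method. Their median length was 73 bp, and 181 of them lay on a single fragment and 98 on 2, against a median of 8 fragments for all genes. The value of a gene is the mean log2 ratio over the fragments it overlaps, weighted by fragment length, so it describes the stretch of DNA around a tRNA gene and not the gene alone. Fragments under tRNA genes had a median length of 525.5 bp, against 197 bp for all fragments. Within a profile, 0.289% to 4.91% of these fragments were at exactly 0, against 12.4% to 21.6% of all fragments.

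Many tRNA genes could not be told apart. A fragment was shared with another tRNA gene by 120 of the 290, and the 290 genes had 260 distinct sets of fragments. At most 3 tRNA genes lay on 1 fragment. One such fragment, on arm 2R at 16219154 to 16221132, holds the glutamate genes tRNA:Glu-TTC-1-1, tRNA:Glu-CTC-1-1 and tRNA:Glu-TTC-1-2, with a single naïve value of 0.40 ± 0.12 (SD, n = 3) for all of them. For 58 tRNA genes the fragments held no other gene of any kind, and 134 lay within or over a protein-coding gene. Sequences of the genes are not given here.

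The profiles were checked before the tRNA genes were compared. The naïve mean was above 0.2 for 6 of 8 MB marker genes, such as prt at 0.57 ± 0.23 and Mef2 at 0.49 ± 0.15 (SD, n = 3). Of all genes, 31.2% were above 0.2. The other MB markers were dnc at 0.11 ± 0.04 and Fas2 at 0.03 ± 0.03. The naïve mean was below -0.2 for 3 of 4 markers of other cells, against 18.6% of all genes. The fourth, the photoreceptor gene ninaE, was at 0.18 ± 0.08. These values are ratios of Dam::CrebB over Dam-only and not expression, so they check the cell type only loosely. Paired TI-1 replicate 3 stood apart. Over the tRNA genes its correlation with the other profiles was 0.0960 to 0.608, whereas the other 14 profiles correlated with each other at 0.569 to 0.967 (Pearson's r across genes, which are not independent replicates). Chromosome names carried a prefix in the naïve, the unpaired TI-1 and 1 paired TI-1 file and in none of the others. Differences between TI-2 and naïve flies, and between the intervals in unpaired flies, therefore cannot be told apart from this difference between files. Those of paired TI-1 with naïve or with paired TI-2 flies are mixed with it in part.

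In naïve flies the tRNA genes as a whole had higher log2 ratios than genes in general, but the 58 whose fragments held no other gene did not. Over the 290 the median naïve ratio was 0.14, against 0.01 for all genes and 0.01 for the 2511 other genes that overlap only 1 or 2 fragments. Over the 58 it was -0.02, and 19.0% of them had a mean above 0.2. Over the 290 the mean was above 0.2, the level the study used as its cut-off, for 126 tRNA genes (43.4%), against 31.2% of all genes. It was below -0.2 for 30 tRNA genes (10.3%), against 18.6% of all genes. A mean above 1 was found for 34 tRNA genes (11.7%), against 4.02% of all genes and 7.29% of the other genes of 1 or 2 fragments. These 34 lay on 33 sets of fragments and covered 19 of the 22 amino acid classes.

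The same order was seen in most single profiles. The median over tRNA genes was 0.07, 0.12 and 0.15 in the naïve replicates, against 0.00, 0.01 and 0.03 over all genes. It was above the median of all genes in 12 of 15 profiles and above that of the other genes of 1 or 2 fragments in 13. The profiles in which it was not above all genes were unpaired TI-1 replicate 3, paired TI-1 replicate 3 and paired TI-2 replicate 3.

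**Figure D1:**
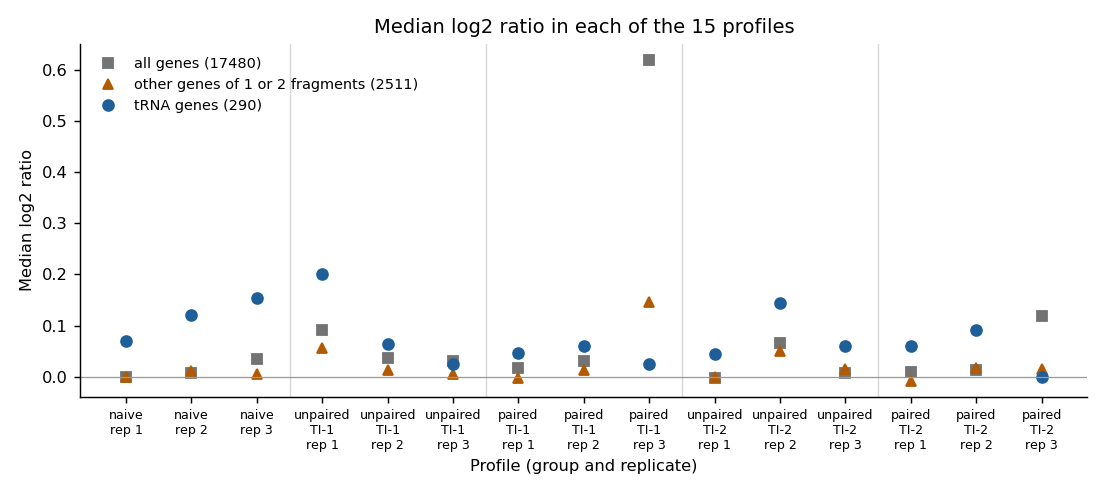
Median log2 ratio (y axis) over 290 tRNA genes, 17480 genes and 2511 other genes of 1 or 2 fragments in each of the 15 profiles (x axis). The tRNA genes are above all genes in 12 profiles, and in paired TI-1 replicate 3 the median of all genes is 0.62 while that of the tRNA genes is 0.02. That of the other genes of 1 or 2 fragments is 0.15 there.

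The limma test of the 3 naïve ratios against 0 called 0 tRNA genes and 0% of all genes. Its cut-offs were an adjusted p under 0.01 and a ratio above 0.2 in size, the same numbers that the study used. The study drew its FDR values from the signal over several GATC fragments, so this test does not repeat its calls. At an adjusted p under 0.05 it called 105 tRNA genes above 0 and 24 below, against 28.6% and 17.3% of all genes. At an unadjusted p under 0.05 these counts were 112 and 25, with 30% and 18.1% of all genes. The smallest adjusted p of a tRNA gene was 0.0111. At an adjusted p under 0.01 and a size above 0.2, the count of 0 also held without replicate 2 or 3. Without replicate 1 the test called 76, and the share of all genes called there is not given here. The 76 can therefore not be read as particular to tRNA genes.

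The highest naïve ratio of all 17480 genes was that of the lysine gene tRNA:Lys-CTT-1-5, on 2R at 6171496 to 6171568 (release 6). It lies on 1 fragment of 231 bp that holds no other gene. Its naïve values were 2.59, 2.83 and 3.04, with a mean of 2.82 ± 0.22 (SD, n = 3; adjusted p 0.0111). Unpaired TI-1 values were 3.05, 2.45 and 1.30, and paired TI-1 values were 3.00, 2.33 and 0.22. At TI-2 the unpaired values were 1.89, 3.37 and 1.91, and the paired values were 2.89, 3.09 and 3.52. Every group had high values, and the single value near 0 came from paired TI-1 replicate 3. The mean over the fragments 1 to 5 kb away was 0.31 in naïve flies.

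Second among the tRNA genes, and 23 among all genes, was tRNA:Tyr-GTA-1-9, a tyrosine gene inside Ntl on 2L (7711476 to 7711661). Its mean was 2.25 ± 0.39 in naïve flies, 2.47 ± 0.28 in unpaired TI-1, 2.13 ± 0.48 in paired TI-1, 1.98 ± 0.08 in unpaired TI-2 and 2.59 ± 0.89 in paired TI-2 flies (SD, n = 3 each). All 15 values lay between 1.59 and 3.59, so the groups overlapped. A second lysine gene, tRNA:Lys-TTT-2-4 on 3R (6822963 to 6823035), had naïve values of 2.0, 1.97 and 2.77. The lysine gene tRNA:Lys-CTT-1-1, which lies within the ecdysone receptor gene EcR on 2R (6142372 to 6142444), had 2.03, 2.01 and 2.55. The proline gene tRNA:Pro-AGG-1-4, within osp on 2L (14599674 to 14599745), had 1.50, 2.21 and 2.32. All of these exceeded 1 in each naïve replicate.

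The lowest naïve ratios were smaller in size. The leucine gene tRNA:Leu-CAG-1-1 on 2R (8683215 to 8683297) had a mean of -0.52 ± 0.43, with values of -0.48, -0.98 and -0.12. Next came tRNA:Tyr-GTA-1-2 on 2L (2459924 to 2460044) at -0.51 ± 0.15 and tRNA:Thr-AGT-1-3 on 3R (16424987 to 16425060) at -0.51 ± 0.18. The glycine gene tRNA:Gly-GCC-1-11, within CG11044 on 2R (20232797 to 20232867), was at -0.50 ± 0.19. The last was tRNA:Tyr-GTA-1-3 on 2L (2462593 to 2462686), at -0.50 ± 0.23 (SD, n = 3 each). In paired TI-1 replicate 3 both tRNA:Leu-CAG-1-1, at 1.93, and tRNA:Tyr-GTA-1-3, at 2.38, were above 1, which they were in no other profile.

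The share of genes above 0.2 in every profile was near that of genes in general. A value above 0.2 in all 15 profiles was found for 22 tRNA genes (7.59%), against 9.39% of all genes. Without paired TI-1 replicate 3, a comparison added after the data were seen, the count was 38 (13.1%), against 10.9% of all genes. These 38 lay on 34 sets of fragments and came from 19 amino acid classes.

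The tRNA genes of an amino acid did not share a level. Of the variance of the naïve mean over the 290 genes, 88.3% lay within the 22 amino acid classes, with no random grouping set beside it. Selenocysteine, which has a tRNA of its own that reads a stop codon, had the highest median and 1 gene, tRNA:SeC-TCA-1-1 on 2R (11357564 to 11357650), with naïve values of 1.14, 1.57 and 1.69. The 5 histidine genes had a median of 1.33 and ranged from -0.05 to 2.0. The 11 isoleucine genes had a median of 0.73, and 10 of them were above 0.2. The lowest medians were those of serine at -0.01 (20 genes), aspartate at 0.01 (14) and tyrosine at 0.01 (10). The tyrosine class held both the gene at 2.25 and 2 of the 5 lowest genes.

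**Figure D2:**
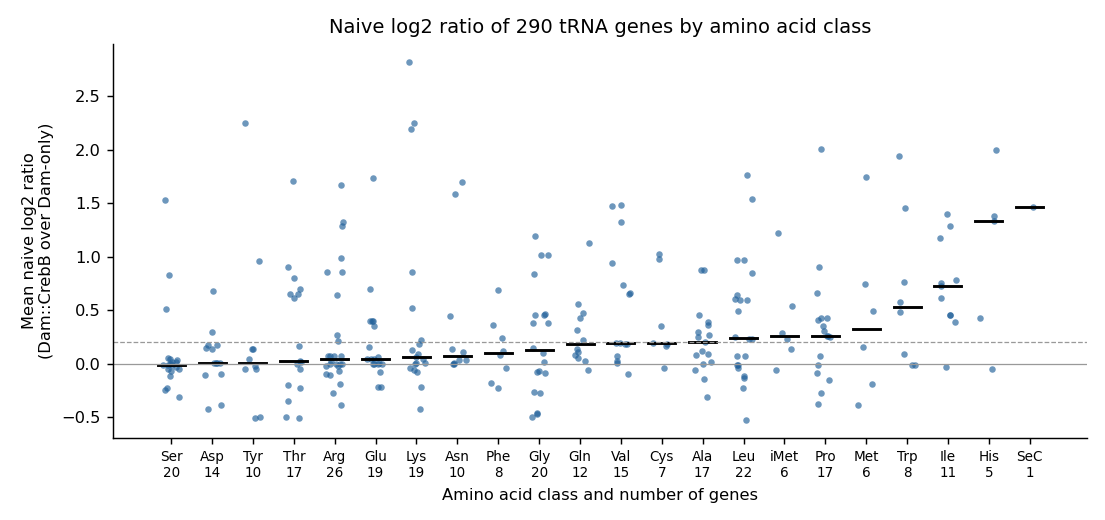
Mean naïve log2 ratio (y axis) of each of the 290 tRNA genes, as a point, by amino acid class (x axis, with the number of genes), with bars for the class medians and a dashed line at 0.2. Most classes hold genes near 0 beside genes above 1, and the medians run from -0.01 for serine to 1.47 for the single selenocysteine gene.

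Initiator methionine tRNA, which starts translation, was kept as a class of its own. Its 6 genes had a median of 0.26, close to the 0.32 of the 6 elongator methionine genes. The highest, tRNA:iMet-CAT-1-4 within ome on 3L (14673942 to 14674013), was at 1.22 ± 0.28 and its neighbour tRNA:iMet-CAT-1-5 at 0.28 ± 0.12. On 2R, tRNA:iMet-CAT-1-2 was at 0.54 ± 0.31, tRNA:iMet-CAT-2-1 at 0.23 ± 0.11 and tRNA:iMet-CAT-1-1 at 0.14 ± 0.07. A fragment is shared by tRNA:iMet-CAT-1-1 and tRNA:iMet-CAT-1-2, and another by tRNA:iMet-CAT-1-4 and tRNA:iMet-CAT-1-5. The values within each of these pairs are thus not separate readings. The lowest, tRNA:iMet-CAT-1-3 within hng3 on 3L, was at -0.06 ± 0.17 (SD, n = 3 each). Its sign turned when 500 bp were added on each side of the gene and when naïve replicate 2 was left out.

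Copies with the same number for the mature tRNA also differed in their ratios. Among the 46 families with 2 or more genes, which hold 252 genes, the median range of the naïve mean was 1.05. In 33 of them some copies were above 0.2 and others were not, in 8 no copy was above 0.2 and in 5 all were. Within the 84 families, those of a single gene included, lay 70.2% of the variance. Within clusters, meaning tRNA genes at most 5 kb apart on an arm, lay 30.7%, where neighbours can share a fragment. With genes that stand alone, these made 144 classes. Such a share falls as the number of classes grows, so these shares and that of the amino acid classes cannot be compared. The share left by a random grouping was not computed.

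The family with the widest range, 3.24, was Lys-CTT-1 with 13 genes, no 2 of which had the same set of fragments. Its highest copies, tRNA:Lys-CTT-1-5 and tRNA:Lys-CTT-1-1 on 2R, had naïve means of 2.82 and 2.20. Next came tRNA:Lys-CTT-1-6, with naïve values of 0.57, 0.97 and 1.04, and tRNA:Lys-CTT-1-4, with 0.35, 0.32 and 0.90. At the other end, tRNA:Lys-CTT-1-7 had -0.40, -0.16 and -0.07, and tRNA:Lys-CTT-1-8 had -0.29, -0.25 and -0.71. The lysine family Lys-TTT-2 had 5 genes, whose naïve means ran from 0.01 to the 2.25 of tRNA:Lys-TTT-2-4. In the tyrosine family Tyr-GTA-1 the 9 genes ran from -0.51 to 2.25. How the pipeline treated reads that match several copies is not given in the sources used here.

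**Figure D3:**
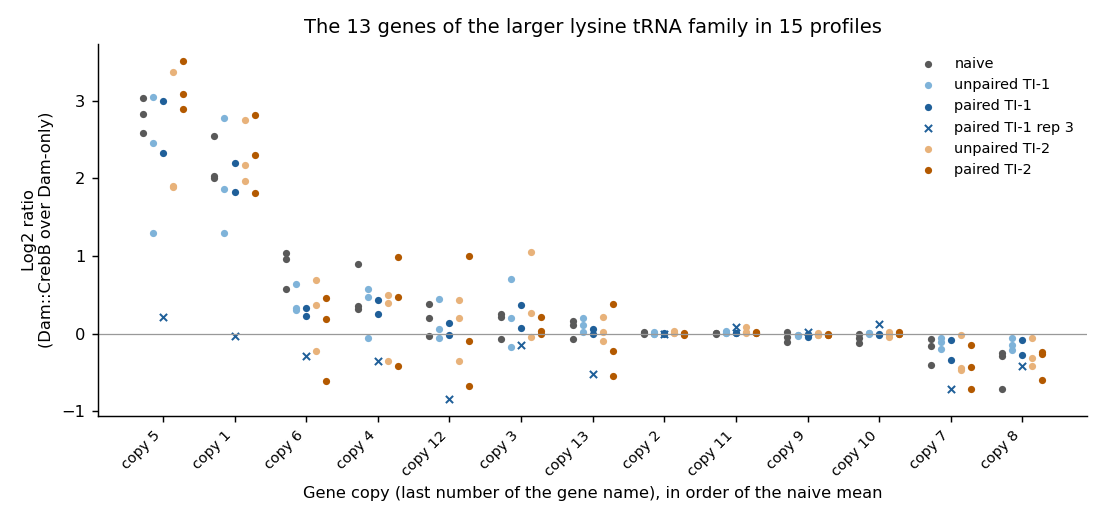
Log2 ratio (y axis) of the 13 genes of the lysine family Lys-CTT-1 in all 15 profiles, with 1 point per replicate coloured by group and the genes in order of the naïve mean (x axis). Copies 5 and 1 are near 2 to 3 in most profiles and near 0 in paired TI-1 replicate 3 (crosses), and the other 11 copies lie near or below 1.

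The histidine genes form a single family, His-GTG-1. The genes of this family with a naïve mean above 1 lie within 3 kb of each other on 2R. They were tRNA:His-GTG-1-4 (12336418 to 12336489) at 2.0 ± 0.46, tRNA:His-GTG-1-3 at 1.38 ± 0.47 and tRNA:His-GTG-1-2 at 1.33 ± 0.50. The naïve values of tRNA:His-GTG-1-3, 0.83, 1.66 and 1.64, were close to the 0.76, 1.65 and 1.58 of tRNA:His-GTG-1-2. These genes may therefore not be separate readings. At the same locus tRNA:His-GTG-1-1 was at 0.43 ± 0.27, while tRNA:His-GTG-1-5, elsewhere on 2R, was at -0.05 ± 0.05 (SD, n = 3 each).

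Of the 290 genes, 76 stood alone and 68 clusters held 2 or more genes. The 10 clusters of 5 or more genes held 72 genes and had medians from -0.04 to 0.76. The highest was a cluster of 7 isoleucine and leucine genes that spans 2513 bp of 2R, with naïve means from -0.04 to 1.29 and 6 genes above 0.2. The lowest was a cluster of 6 glutamate genes on 3L, with means from -0.22 to 0.00 and no gene above 0.2. The cluster that holds tRNA:Lys-CTT-1-5 has 11 genes over 10225 bp of 2R. Its nearest neighbour there, tRNA:Arg-ACG-1-4, was at 0.64 and the cluster median at 0.07. By arm, the median ran from 0.02 for 24 genes on X to 0.32 for 98 genes on 2R.

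The surroundings of a tRNA gene went with its ratio. Where the fragments also held another gene, the naïve median was 0.19 over 232 tRNA genes, and 115 of them (49.6%) were above 0.2. Where they held none it was -0.02 over 58 genes, and 11 (19.0%) were above 0.2. The median of the 232 was the higher in 14 of 15 profiles, and paired TI-1 replicate 3 was the exception, with 0.02 against 0.05. Another tRNA gene counts as another gene in this split. A split by whether a gene of another kind lies over the tRNA gene itself showed a smaller difference. With such a gene 46.7% of 135 were above 0.2, and without it 40.6% of 155. Fragment size moved with the ratio too. The share above 0.2 was 25.6% where the fragments came to 400 bp or less, 52.9% up to 800 bp, 51.4% up to 1600 bp and 27.3% beyond. Whether these properties account for one another was not tested.

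Mean ratios above 0 extended over several kb around the tRNA genes, as they did around miRNA and snoRNA genes. In naïve flies the mean over the genes was 0.33 ± 0.11 in the 500 bp bin on the lower-coordinate side of the gene centre and 0.32 ± 0.11 on the other side (SD over 3 profiles). At 4.75 kb it was 0.27 ± 0.07 on the lower and 0.14 ± 0.06 on the higher side. The median over the tRNA genes on the lower side there was 0.03, 0.04 and 0.07 in the naïve replicates. Around miRNA genes the naïve means were 0.14 and 0.16 in the innermost bins and 0.18 and 0.15 at 4.75 kb. Around snoRNA genes they were 0.12 and 0.10 in the innermost bins and 0.18 and 0.17 at 4.75 kb. The gene table gives no strand, so the sides are not upstream and downstream. The mean at the gene exceeded the mean of the fragments 1 to 5 kb away by 0.05, 0.08 and 0.11 in the naïve replicates. Single genes in naïve flies lay above their surroundings about as often as below, in 146, 145 and 147 of 290 cases. In unpaired TI-2 replicate 3, 165 lay above. Apart from 2 profiles described next, 126 to 143 did so in the other trained profiles. The median difference there was -0.05 to -0.004, so most single genes lay below their surroundings although the mean at the genes was higher.

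In the means, the opposite shape was seen in paired TI-1 replicate 3 and, to a smaller extent, in paired TI-2 replicate 3. In paired TI-1 replicate 3 the mean was 0.59 over the fragments 1 to 5 kb away and 0.20 at the genes, and 71 of 290 tRNA genes lay above their surroundings. In paired TI-2 replicate 3 these means were 0.30 and 0.19, and 110 genes lay above, while in the other 13 profiles the mean at the genes was the higher. The innermost bins of paired TI-2 replicate 3 were at 0.21 and 0.17, beside 0.36 and 0.27 at 4.75 kb. The lowest bins of paired TI-1 replicate 3 were the innermost, at 0.22 and 0.18. Around snoRNA genes, whose RNAs guide rRNA modification, the innermost bins of paired TI-1 replicate 3 were at 0.53 and 0.54, and those at 4.75 kb at 0.93 and 1.03. Around miRNA genes they were at 0.55 and 0.67, beside 0.77 and 0.75. In the mean of the other 14 profiles the innermost bins were at 0.29 and 0.29 for tRNA genes and at 0.14 and 0.11 for snoRNA genes. Of the 34 tRNA genes with a naïve mean above 1, 15 (44.1%) were below 0 in paired TI-1 replicate 3, against 24.6% of 183 other genes of 1 or 2 fragments and 17.3% of all 669 other genes with such a mean. Among them were tRNA:His-GTG-1-2 at -1.90 and tRNA:Pro-AGG-1-4 at -0.80. Others stayed high, such as tRNA:SeC-TCA-1-1 at 3.37 and tRNA:Tyr-GTA-1-9 at 2.50.

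**Figure D4:**
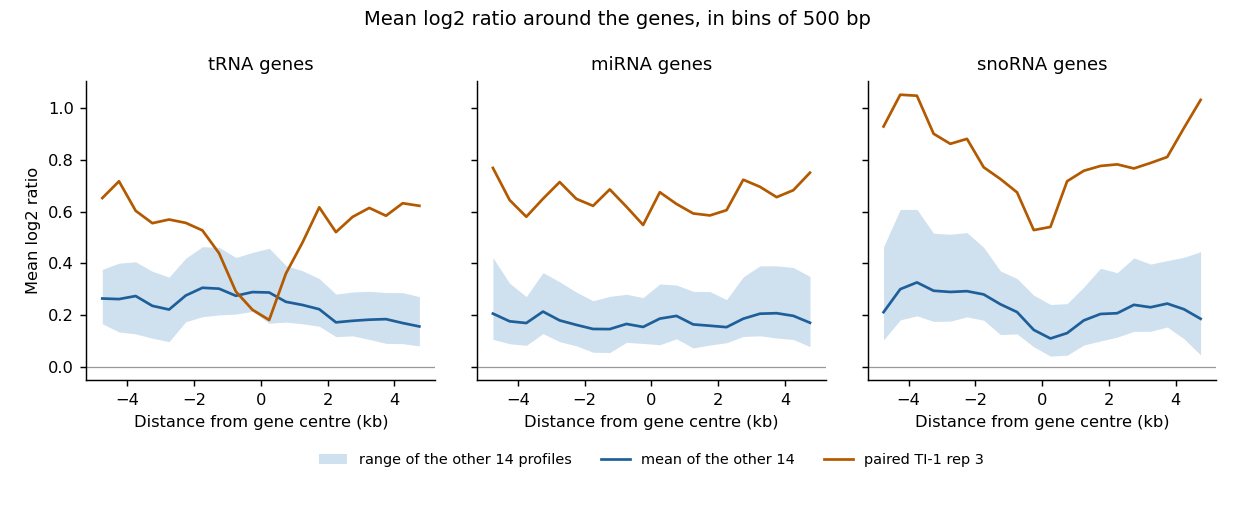
Mean log2 ratio (y axis) in bins of 500 bp by distance from the gene centre (x axis, kb) over tRNA, miRNA and snoRNA genes, with the mean (line) and range (band) of 14 profiles and paired TI-1 replicate 3 as a line of its own. At tRNA genes that replicate falls from above 0.5 at 2 kb and beyond to about 0.2 at the gene, where the low edge of the band, 0.17, is paired TI-2 replicate 3.

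Leaving paired TI-1 replicate 3 out moved the paired TI-1 level of genes in general more than that of tRNA genes. In the paired TI-1 mean of 3 replicates, 102 tRNA genes (35.2%) were above 0.2, against 58% of all genes. Of the other genes of 1 or 2 fragments, 37.0% were. Without replicate 3 the count of tRNA genes was 103 (35.5%), against 28.1% of all genes. The unpaired TI-1 mean was above 0.2 for 117 tRNA genes (40.3%), against 33.9% of all genes. For TI-2 it was so for 115 (39.7%) of unpaired and 112 (38.6%) of paired flies, against 26.1% and 35.6% of all genes. Centring each profile on its median over genes moved the values of this replicate by 0.62, which put its tRNA median at -0.59. Before centring, its median was 0.02 for tRNA, 0.04 for snoRNA and 0.17 for miRNA genes. For the other genes of 1 or 2 fragments it was 0.15. A median below that of all genes was thus not particular to tRNA genes.

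Paired and unpaired flies were compared within replicate numbers, and the question was whether CrebB signal differs after learning. No tRNA gene and no gene at all passed the test at TI-1 or TI-2 (limma, adjusted p under 0.01 and a difference above 0.2; background 0%). At TI-1 the median difference over the tRNA genes was -0.16 in pair 1, -0.01 in pair 2 and 0.00 in pair 3, against -0.08, 0.00 and 0.47 over all genes. Pair 1 is also the only TI-1 pair whose files name chromosomes alike. At TI-2 the medians were 0.01, -0.03 and -0.05, against 0.02, -0.05 and 0.09.

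At an unadjusted p under 0.05 and a difference above 0.2, 14 tRNA genes were lower in paired flies at TI-1 (4.83%), against a background of 1.02%, and 1 was higher, against 0.00572%. Without replicate 3 these counts became 39 and 1, with 5.55% and 0.727% of all genes. At TI-2 the counts were 5 lower, against 0.28%, and 1 higher, against 0.292%. All 3 pairs were below 0 at TI-1 for 90 tRNA genes (31.0%), against 10.1% of all genes and 17.5% of the other genes of 1 or 2 fragments. The shift of 0.47 in pair 3 over all genes moves with these shares, and its part in them was not tested. All 3 were above 0 for 13 (4.48%), against 10.3%. At TI-2, 35 tRNA genes (12.1%) were below 0 in all pairs, against 8.88%, and 18 (6.21%) above, against 8.59%.

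**Figure D5:**
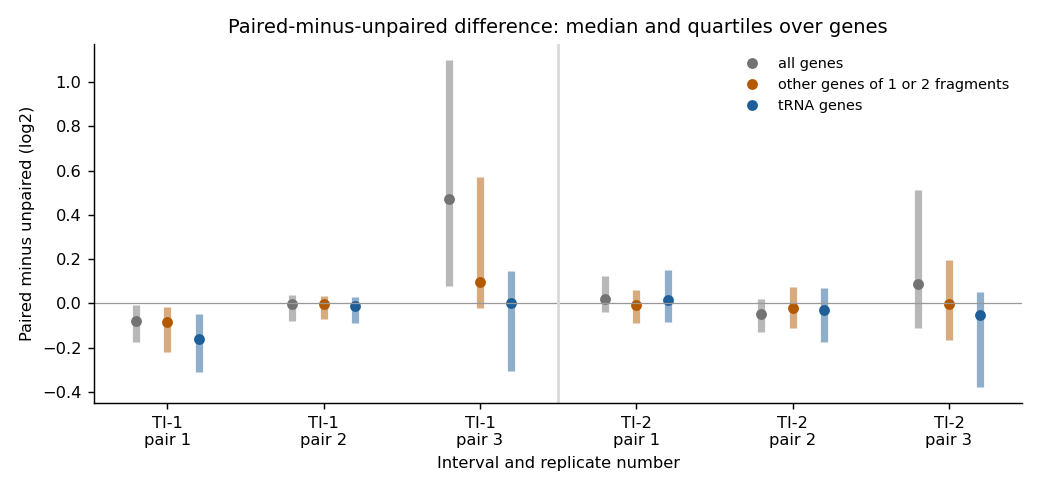
Difference in log2 ratio, paired minus unpaired (y axis), for each interval and replicate number (x axis), with the median (point) and quartiles (bar) over genes. In TI-1 pair 3 the median is 0.47 for all genes, 0.10 for other genes of 1 or 2 fragments and 0.00 for tRNA genes. In the other pairs the medians lie between -0.16 and 0.09.

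The smallest p at TI-1 was that of tRNA:Lys-TTT-2-4, a lysine gene that earlier results on these profiles had named. Its unpaired TI-1 values were 3.74, 2.69 and 3.31 and its paired values 3.02, 1.85 and 2.30, so each paired value was below its partner and the ranges overlapped. The difference was -0.86 ± 0.11 (SE, n = 3 pairs; unadjusted p 0.00315, adjusted p 0.836). At TI-2 its unpaired values were 2.60, 3.04 and 4.45 and its paired values 3.51, 2.94 and 3.68, a difference of 0.01 ± 0.39 (SE; adjusted p 0.999). Next at TI-1 were the tryptophan gene tRNA:Trp-CCA-2-4, with differences of -0.30, -0.39 and -0.48, and the cysteine gene tRNA:Cys-GCA-1-1 within Cht7, with -0.53, -0.34 and -0.87. Neither passed after adjustment (adjusted p 0.836 for both).

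The gene with the smallest p at TI-2 was the glycine gene tRNA:Gly-GCC-1-9 on 2R (18639726 to 18639796). Its TI-2 differences were -0.35, -0.44 and -0.65, and those at TI-1 were -0.58, -0.19 and -0.63. The TI-2 difference was -0.48 ± 0.09 (SE; unadjusted p 0.0101, adjusted p 0.892) and turned to 0.29 when 500 bp were added on each side. The valine gene tRNA:Val-TAC-1-1 on 3L was also lower in all pairs. Its TI-1 differences were -0.61, -0.20 and -0.53, and its TI-2 differences were -0.41, -0.15 and -0.37 (adjusted p 0.836 and 0.892).

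The glutamate gene tRNA:Glu-CTC-3-1 on 3L (1379934 to 1380005), which lies over Ptp61F and ru, went the other way. At TI-1 its unpaired values were 0.11, -0.01 and 0.10 and its paired values 0.35, 0.27 and 0.48. At TI-2 these were 0.10, -0.04 and -0.03 for unpaired and 0.57, 0.23 and 0.63 for paired flies. The paired and unpaired values did not overlap at either interval. The differences were 0.30 ± 0.09 (SE; unadjusted p 0.0405, adjusted p 0.836) and 0.47 ± 0.10 (unadjusted p 0.0171, adjusted p 0.892). At TI-1 it was the 1 gene of 17480 that was higher at the unadjusted threshold. Differences of 1 sign in all 6 pairs were found for 19 tRNA genes below 0 (6.55%), against 1.57% of all genes, and for 6 above 0 (2.07%), against 2.09%. The 19 lay on 18 sets of fragments and the 6 on 5. In TI-1 pair 3 alone, 48.3% of tRNA genes were below 0, against 16.9% of all genes. Of the other genes of 1 or 2 fragments, 30.9% were. The part of that pair in the shares over 6 pairs was not tested.

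No tRNA gene passed the test of the TI-1 difference against the TI-2 difference (0% of all genes), and none did so at an unadjusted p under 0.05 with a size above 0.2, against 0.469% of all genes lower and 0% higher. The smallest p was 0.0545, for tRNA:His-GTG-1-4, with a difference between the intervals of -1.22 ± 0.50 (SE; adjusted p 1). Next were the isoleucine gene tRNA:Ile-AAT-1-3, at -0.34 ± 0.14, and the methionine gene tRNA:Met-CAT-1-2, at -0.74 ± 0.33 (adjusted p 1 for both).

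Each trained group was compared with the same 3 naïve profiles in a model of all 15. No tRNA gene and no other gene was called in any of these 4 comparisons, nor between the intervals within paired or within unpaired flies. At an unadjusted p under 0.05 and a size above 0.2, 6 tRNA genes were higher and 22 lower in paired TI-1 than in naïve flies, against 7.6% and 2.65% of all genes. In paired TI-2 flies 4 were higher and 25 lower, against 0.606% and 2.2%. In unpaired flies the counts were 2 and 1 at TI-1, against 0.749% and 0.229%, and 7 and 6 at TI-2, against 1.58% and 1.33%. Paired TI-1 against paired TI-2 gave 1 higher and 3 lower, against 0.24% and 0.235%, and unpaired TI-1 against unpaired TI-2 gave 1 higher, against 0.12%, and 0 lower, against 0%.

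The glycine gene tRNA:Gly-TCC-1-1 within CG31248 on 3R (7129864 to 7129935) had the smallest p against naïve in both paired groups. Its naïve values were 0.06, 0.85 and 0.49. Paired TI-1 flies had -0.29, -0.16 and -0.64, and paired TI-2 flies had -0.25, -0.26 and -0.94, all below the naïve range. The differences were -0.83 ± 0.24 and -0.95 ± 0.24 (SE; adjusted p 0.283 and 1), and its unpaired values ran from -0.51 to 0.09. The alanine gene tRNA:Ala-CGC-1-2 within gol on 2R, which shares its fragments with tRNA:Ala-CGC-1-3, had 0.58, 1.04 and 1.02 in naïve and 0.40, 0.33 and -0.52 in paired TI-1 flies and did not pass the adjusted test (adjusted p 0.283). The tyrosine gene tRNA:Tyr-GTA-1-2, with naïve values of -0.36, -0.66 and -0.50, had the smallest p in both unpaired groups, with a difference of 0.37 ± 0.11 at the first interval and 0.40 ± 0.11 at the second (SE; adjusted p 1 for both).

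Between the intervals, the smallest p was that of tRNA:Thr-TGT-2-3 in paired flies, at 0.22 ± 0.09 (adjusted p 0.639), and of tRNA:Met-CAT-1-2 in unpaired flies, at 0.71 ± 0.23 (SE; adjusted p 1). For the latter the TI-1 values were 1.95, 1.74 and 2.35 and the TI-2 values 1.62, 1.48 and 0.82, which do not overlap. The unpaired TI-1 and TI-2 files also differ in their chromosome names, and this cannot be told apart from the interval.

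The protein-coding genes that make and use tRNAs were described beside the tRNA genes. Over all genes, 31.2% had a naïve mean above 0.2 and 18.6% one below -0.2. Of 17 genes for RNA polymerase III and its factors, 3 (17.6%) had a naïve mean above 0.2 and 2 below -0.2, with a median of 0.02. The highest were Brf, a subunit of the initiation factor TFIIIB, at 0.56 ± 0.11, and the polymerase subunits Polr3F at 0.56 ± 0.21 and Polr3I at 0.32 ± 0.10. The lowest were the subunits Polr3D at -0.56 ± 0.12, Polr3B at -0.23 ± 0.12 and Polr3C at -0.20 ± 0.12 (SD, n = 3 each). Maf1, the repressor of the polymerase, was at -0.13 ± 0.04.

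Of 20 genes for cytosolic aminoacyl-tRNA synthetases, which load tRNAs with amino acids, 5 (25.0%) were above 0.2 and 6 below -0.2, with a median of 0.02. The shares over all genes were 31.2% and 18.6%. ThrRS was the highest at 1.04 ± 0.34, followed by HisRS at 0.71 ± 0.18 and AspRS at 0.58 ± 0.15. LeuRS was the lowest at -0.33 ± 0.13, followed by MetRS at -0.24 ± 0.07 and ValRS at -0.24 ± 0.07. Of 14 genes for tRNA processing and modification, 5 (35.7%) were above 0.2 and 0 below -0.2, with a median of 0.00. The highest were Archease, a cofactor of the tRNA ligase, at 0.64 ± 0.25, the methyltransferase Trm7-34 at 0.64 ± 0.20 and the splicing endonuclease subunit Tsen34 at 0.61 ± 0.28. The lowest were the RNase P subunit Rpp30 at -0.19 ± 0.14, Elp3 of the Elongator complex at -0.11 ± 0.14 and the methyltransferase Trm7-32 at -0.10 ± 0.01 (SD, n = 3 each). None of the 51 genes was called in any comparison, and none had an unadjusted p under 0.05 with a difference above 0.2 between paired and unpaired flies at either interval. The medians of the lists in paired TI-1 flies were 0.38, 0.51 and 0.25, beside 0.27 for all genes and 0.06 for tRNA genes. Without paired TI-1 replicate 3, left out after the data were seen, they were 0.02, 0.01 and 0.05, beside 0.03 for all genes and 0.06 for tRNA genes.

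Other genes of small RNAs served as a comparison. The naïve median was 0.01 for 260 miRNA genes, of which 31.5% were above 0.2, and -0.05 for 257 snoRNA genes, of which 29.2% were above 0.2. The 18 genes of 5S rRNA, which RNA polymerase III also transcribes, had naïve means between -0.06 and 0.04, but their median was at exactly 0 in 13 of 15 profiles, so they carried too little signal for a comparison with the tRNA genes. Above 1 were 9.23% of miRNA and 8.95% of snoRNA genes, beside the 11.7% of tRNA genes.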

How the data were processed

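The authors aligned single mates of the read pairs to release 6 of the genome with a DamID pipeline that extends reads, counts them in bins, normalizes and adds pseudocounts, and deposited log2 ratios of Dam::CrebB over Dam-only per GATC fragment. No read counts are part of these values, so the depth is unknown and precision rests on 3 replicates per group. The labels do not say whether these came from separate crosses, so p-values measure the spread between these samples. The deposited lists of the authors' ratios and FDR values were not used. Gene values are length-weighted means over overlapping fragments, with positions from the RefSeq release 6 table. limma 3.58.1 in R 4.3.3 (lmFit, eBayes, two-sided) was fitted on 17480 genes with Benjamini-Hochberg adjustment. Paired minus unpaired was taken within replicate numbers, because the labels list a comparison for each number. Deviations of same-numbered samples over all genes correlated at 0.54, 0.03 and 0.46 at TI-1 and at -0.13, -0.09 and -0.25 at TI-2. Tests were tried on simulated data with independent normal noise, whose spread was taken without the paired TI-1 profiles. That trial therefore does not cover a profile such as paired TI-1 replicate 3. Named genes are the 5 highest and 5 lowest naïve means, the 3 smallest p per comparison, tRNA:Lys-TTT-2-4, the initiator and selenocysteine genes and, per list, the 3 highest and 3 lowest naïve means, each fragment set counted once. Genes and lists were chosen with earlier results of these data known, and Maf1, tRNA:Lys-CTT-1 copies, histidine copies and genes named for paired TI-1 replicate 3 or for a cluster were added after their values were seen. Python 3.11.15 with pandas 2.3.3 and matplotlib 3.10.9 did the rest.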

Additional observations from a re-analysis of the deposited data

Results flagged for a closer look

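The histidine gene tRNA:His-GTG-1-4 moved in opposite directions in the 2 intervals. Its paired-minus-unpaired differences were -0.05, -0.60 and -0.35 at TI-1, with a mean of -0.34, and 0.61, 0.12 and 1.93 at TI-2, with a mean of 0.89. The test of the difference between the intervals gave -1.22 ± 0.50 (SE; unadjusted p 0.0545, adjusted p 1), so it did not pass. Over all tRNA genes, 3 (1.03%) had 3 negative TI-1 and 3 positive TI-2 differences, against 0.406% of all genes, and 0 showed the reverse, against 0.0515%. The other 2 genes, tRNA:Pro-AGG-1-2 and tRNA:Pro-AGG-1-3, share their fragments.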

How the results depend on the processing

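In the 9 comparisons between groups the count of called tRNA genes was 0 under every alternative except array weights for unpaired TI-1 against naïve, which gave 25 (8 higher, 17 lower) with weights that did not fully converge. For the naïve level against 0, which called 0, centred profiles gave 81, quantile normalization 114 and 500 bp of flank 64. An adjusted p under 0.05 gave 129, and leaving out a replicate gave 0 to 76. Apart from the 129, no share over all genes is set beside these counts or the 25. They can therefore not be read as particular to tRNA genes. The median naïve ratio of 0.14 was 0.19 after quantile normalization, 0.19 with 500 bp of flank, -0.0224 over the 58 genes alone on their fragments, and 0.0932 to 0.163 without a replicate. The count above 0.2 in every profile rose from 22 to 38 without paired TI-1 replicate 3. With 500 bp of flank, tRNA:Gly-GCC-1-9 turned to 0.29 for paired minus unpaired at TI-2 and to 0.10 for paired TI-2 minus naïve, tRNA:Gly-GCC-1-6 to -0.11 and -0.15 for unpaired TI-1 and TI-2 minus naïve, and tRNA:iMet-CAT-1-3 to a naïve level of 0.19, which was 0.0191 without replicate 2. Of 618 alternatives for 45 named-gene results, 551 kept direction and side of the threshold, 61 passed it and the 6 just given reversed. The cause was not tested. The fits without the replicate block at each interval, and those with the replicate block against naïve and between intervals, also called 0. Without counts, low read numbers behind single fragments cannot be seen.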
